A study of Mus musculus with 6 samples.

Results

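The genes described here encode the proximal T cell receptor signalling machinery, the proteins that carry the signal from the receptor to the first second messengers. They were listed by function as 29 genes, and 28 were measured by a probe set whose annotation gives 1 symbol, out of 19938 genes in all; each of the 28 had a single such probe set, and Lck was not analysed here. The cells were naive CD4 T cells of mice of the strain C57BL/6 Foxp3-GFP, 6 weeks old, in which green fluorescence reports Foxp3, the factor that defines regulatory T cells; they were taken from peripheral lymph nodes. The sort for both groups kept cells that were CD4+, CD8-, TCRβ+, CD44lo, CD25- and Foxp3-, and the groups differed by Ly-6C, a lipid-anchored surface protein, which 3 samples carried (Ly-6C-positive) and 3 lacked (Ly-6C-negative). Each sample was hybridised on 1 Affymetrix array. The samples are labelled biological replicates without saying which mice gave them, so p-values measure the spread between these samples.

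The T cell receptor has no enzymatic activity of its own. When it binds a peptide presented by an MHC molecule, the kinase Lck, held by the coreceptor CD4, phosphorylates motifs in the tails of the CD3 chains. ZAP-70 docks there and phosphorylates the scaffolds LAT and SLP-76, which gather PLCγ1, Vav1 and further adaptors, and these lead on to calcium, Ras and NF-κB. In naive T cells the machinery is present before any antigen is met. The comparison asks whether its transcripts differ with Ly-6C among naive cells, and differences are given as Ly-6C-negative minus Ly-6C-positive in log2 expression.

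The arrays followed their labels: a probe set shared by the near-identical genes Ly6c1 and Ly6c2 was 9.03-fold lower in the Ly-6C-negative samples (limma adjusted p = 3.94e-05 over all probe sets). Another probe set of the same genes was 6.03-fold lower (limma adjusted p = 0.000675). Median log2 expression lay between 6.25 and 6.29 on the 6 arrays, and arrays correlated across genes with r from 0.993 to 0.998 within a group. Their number limits the precision of every value. In the lists of other cell types, 0 of 7 measured B cell genes, 0 of 2 CD8 genes, 0 of 5 NK genes, 0 of 6 myeloid genes and 0 of 4 regulatory T cell genes had a limma adjusted p under 0.05, against 0.145% of all genes. At an unadjusted p under 0.05 the numbers were 0, 0, 0, 2 and 1, against 6.71% of all genes. The 2 myeloid genes went opposite ways, Fcer1g by -0.165 and Lyz2 by 0.246 (limma adjusted p = 0.741 and 0.742). The summed level of the B cell list ranged from 8.05 to 8.12 in Ly-6C-negative and from 8.11 to 8.14 in Ly-6C-positive samples in log2. The ranges were 8.07 to 8.39 and 8.24 to 8.46 for the CD8 list, 7.35 to 7.53 and 7.47 to 7.66 for the NK list, and 7.53 to 7.60 and 7.55 to 7.64 for the myeloid list. For the regulatory T cell list they did not overlap, at 8.39 to 8.51 and 8.32 to 8.38, with a median difference of 0.11. Its defining gene Foxp3 differed by 0.013, Il2ra by 0.12, Ikzf4 by 0.19 (unadjusted p = 0.0153, limma adjusted p = 0.599) and Lrrc32 by 0.10. In Ikzf4 and Lrrc32 the groups did not overlap. The B cell genes Pax5 (-0.157) and Blnk (-0.0868) were separated by group too, both lower in Ly-6C-negative samples. Across the whole array, 12.6% of genes were separated in this way. Array values have no true zero, so absence cannot be read from them. The part of these other cell types in the differences below was not tested. In sorted samples measured in bulk, fewer cells of a type and less RNA per cell cannot be told apart.

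No difference in the signalling machinery passed the test. Of the 28 genes, 0 had a limma adjusted p under 0.05, where 0.145% of all genes did. The differences ran from -0.29 for Trat1 to 0.22 for Rasgrp1, with 14 genes above 0 and 14 below and a median of 0.00080, beside a median of -0.0048 over all genes. Without regard to sign the median difference was 0.085, against 0.062 over all genes, and 4 of the 28, or 14.3%, differed by more than 0.2, against 5.71% of all genes. At an unadjusted p under 0.05 there were 5 genes, Txk, Rasgrp1, Rhoh, Plcg1 and Trat1, or 17.9%, against 6.71% of all genes. Of these 5, Rasgrp1 and Plcg1 lay higher (3.44% of all genes did so at that level) and Txk, Rhoh and Trat1 lower (3.27% of all genes). The groups did not overlap in 4 of the 28 genes, or 14.3%, against 12.6% of all genes, which is near the background. All 28 genes lay above the array medians, with group means from 7.89 (Bcl10, Ly-6C-positive) to 12.43 (Cd3g). The part of expression level in these shares was not tested.

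The intervals bound how large a difference could have been missed. The 95% confidence intervals of single genes, from limma and not adjusted for the number of genes, reached from -0.54 at the lowest to 0.39 at the highest, so that 0 of 28 extended to a 1.5-fold change, which is 0.585 in log2. For 24 of the 28 genes the whole interval lay within a 1.3-fold change in either direction, the others being Txk, Rasgrp1, Rhoh and Trat1. These bounds hold for the deposited values, whose normalization can compress differences of very dim and very bright probe sets.

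**Figure D1:**
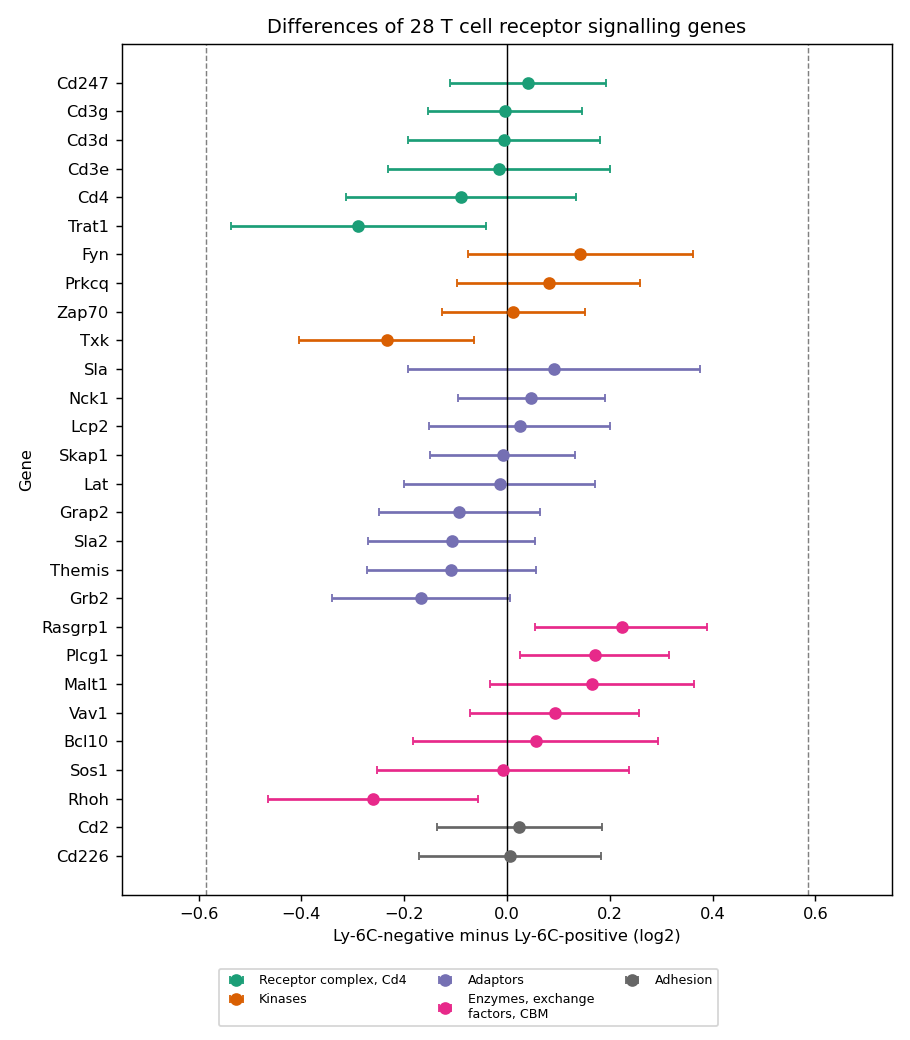
Difference between Ly-6C-negative and Ly-6C-positive cells in log2 expression (horizontal axis) for the 28 measured genes, ordered by role; points are limma estimates from 3 arrays against 3 and bars are 95% confidence intervals. CBM stands for the Bcl10 and Malt1 complex, and the dashed lines mark a 1.5-fold change, which no bar reaches; the bars of Trat1, Txk, Rasgrp1, Plcg1 and Rhoh lie clear of 0 without adjustment.

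The CD3 chains, which carry the motifs phosphorylated by Lck, had differences close to 0, with intervals that reached to both sides of it. Cd3g, the gene of the gamma chain, measured 12.47, 12.44 and 12.37 in Ly-6C-negative replicates 1, 2 and 3 and 12.42, 12.50 and 12.38 in Ly-6C-positive ones, a difference of -0.0040 with a 95% interval from -0.15 to 0.15 (limma adjusted p = 0.999). Cd3d, which encodes the delta chain, measured 12.13, 12.30 and 12.03 against 12.08, 12.23 and 12.16, a difference of -0.0067 with an interval from -0.19 to 0.18 (limma adjusted p = 0.997). For both genes the groups overlapped, and the sign of so small a difference changed with the scaling of the arrays.

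Cd3e, the epsilon chain gene, measured 11.81, 11.55 and 11.92 in Ly-6C-negative samples and 11.78, 11.84 and 11.71 in Ly-6C-positive samples, a difference of -0.016 with an interval from -0.23 to 0.20 (limma adjusted p = 0.993). Ly-6C-negative replicate 2 was the lowest of the 6 arrays, replicate 3 of the same group the highest, and the sign turned under either rescaling of the arrays. Cd247, the gene of the zeta chain, measured 9.29, 9.18 and 9.28 against 9.18, 9.17 and 9.27, a difference of 0.041 with an interval from -0.11 to 0.19 (limma adjusted p = 0.950). Cd3g, Cd3d and Cd3e follow one another among protein-coding genes in the RefSeq annotation of GRCm38.p6. In the RefSeq promoter table Cd3d and Cd3g are read in opposite directions from starts 1355 bases apart, and the annotation does not place Cd247 beside them.

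Cd4, the gene of the coreceptor on which both populations were sorted, measured 10.47, 10.30 and 10.72 in Ly-6C-negative samples and 10.55, 10.63 and 10.58 in Ly-6C-positive samples. The difference was -0.089 with an interval from -0.31 to 0.14 (limma adjusted p = 0.922). All 3 Ly-6C-positive arrays lay inside the range of the Ly-6C-negative ones. Trat1 encodes TRIM, a transmembrane adaptor bound to the receptor complex, and had the lowest difference of the 28 genes. It measured 9.19, 9.17 and 9.56 in Ly-6C-negative samples and 9.47, 9.68 and 9.65 in Ly-6C-positive samples. The difference was -0.29 with a standard error of 0.11 and an interval from -0.54 to -0.042 (unadjusted p = 0.0267, limma adjusted p = 0.655). Ly-6C-negative replicates 1 and 2 lay below all Ly-6C-positive arrays, and replicate 3 lay among them.

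Among the 4 kinase genes the groups did not overlap in 1, or 25.0%, against 12.6% of all genes. Txk, the gene of a Tec family kinase expressed in T cells, measured 10.34, 10.14 and 10.35 in Ly-6C-negative samples and 10.47, 10.54 and 10.52 in Ly-6C-positive samples. Each Ly-6C-negative array lay below each Ly-6C-positive array, at a mean difference of -0.23 or 1.18-fold, with an interval from -0.40 to -0.064 (unadjusted p = 0.0122, limma adjusted p = 0.578). Tec, the gene of the related kinase and the next protein-coding gene to Txk in the same annotation, differed by -0.0060 with an interval from -0.17 to 0.16 (limma adjusted p = 0.997).

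Fyn, a Src family kinase that like Lck can phosphorylate CD3 chains, measured 11.25, 10.85 and 11.15 in Ly-6C-negative samples and 10.94 on each Ly-6C-positive array. Replicate 2 of the Ly-6C-negative group lay below the Ly-6C-positive arrays and the other 2 above them, so the groups overlapped, with a difference of 0.14 and an interval from -0.077 to 0.36 (limma adjusted p = 0.872). Zap70, which encodes the kinase recruited to phosphorylated CD3, averaged 8.96 ± 0.031 (SD, n = 3) in Ly-6C-negative and 8.95 ± 0.023 (SD, n = 3) in Ly-6C-positive samples, which differ by 0.013 with an interval from -0.13 to 0.15 (limma adjusted p = 0.990). The groups overlapped and each had little spread. Prkcq, the gene of protein kinase C theta, which acts downstream of diacylglycerol, averaged 11.25 ± 0.13 (SD, n = 3) and 11.17 ± 0.041 (SD, n = 3), which differ by 0.081 (limma adjusted p = 0.911).

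Of the 9 adaptor genes 3 lay above 0 and 6 below. Their groups overlapped in every case, where 12.6% of all genes showed no overlap. At an unadjusted p under 0.05 there were 0, against 6.71% of all genes. Grb2, the adaptor that brings SOS to LAT, measured 8.13, 8.20 and 8.09 in Ly-6C-negative samples and 8.17, 8.39 and 8.36 in Ly-6C-positive samples, a difference of -0.17 with an interval from -0.34 to 0.0051 (limma adjusted p = 0.749). Only Ly-6C-positive replicate 1 lay within the Ly-6C-negative range. Themis, which is needed for T cell development in the thymus, measured 10.24, 10.31 and 10.42 against 10.49, 10.36 and 10.44, a difference of -0.11 (limma adjusted p = 0.867). Sla2 encodes SLAP-2, an adaptor that lowers receptor signalling, and measured 7.81, 8.01 and 7.94 against 8.05, 8.04 and 7.99, a difference of -0.11 (limma adjusted p = 0.862). For both genes 2 of the 3 Ly-6C-negative arrays lay below all Ly-6C-positive ones.

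The scaffold pair at the centre of the pathway did not differ beyond the spread of the arrays. Lat, the membrane scaffold phosphorylated by ZAP-70, measured 11.70 ± 0.14 (SD, n = 3) in Ly-6C-negative and 11.72 ± 0.048 (SD, n = 3) in Ly-6C-positive samples, a difference of -0.014 with an interval from -0.20 to 0.17. Lcp2, the gene of SLP-76, averaged 10.91 ± 0.080 (SD, n = 3) and 10.88 ± 0.11 (SD, n = 3), which differ by 0.024 with an interval from -0.15 to 0.20. Grap2 encodes GADS, which joins the 2 scaffolds, and differed by -0.093 with an interval from -0.25 to 0.064.

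The remaining adaptors were Nck1, which links the receptor to the actin skeleton, Skap1, which takes part in integrin activation, and Sla, the gene of SLAP, which promotes loss of the receptor complex from the cell surface. Nck1 differed by 0.047 with an interval from -0.096 to 0.19, and Skap1 by -0.0085 with an interval from -0.15 to 0.13. Sla measured 9.92 ± 0.30 (SD, n = 3) in Ly-6C-negative and 9.83 ± 0.032 (SD, n = 3) in Ly-6C-positive samples, the widest spread of the 28 genes in Ly-6C-negative cells, and differed by 0.092 with an interval from -0.19 to 0.38. The limma adjusted p of Lat, Lcp2, Grap2, Nck1, Skap1 and Sla lay between 0.884, for Grap2, and 0.994, for Skap1.

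The enzymes, exchange factors and later complex genes had 3 of 7 members at an unadjusted p under 0.05, and in the same 3 the groups did not overlap. That is 42.9%, against 6.71% of all genes at that p and 12.6% without overlap, over no more than 7 genes and without a test of the group. Rasgrp1, the gene of an exchange factor that activates Ras on binding diacylglycerol, measured 10.44, 10.40 and 10.62 in Ly-6C-negative samples and 10.28, 10.26 and 10.24 in Ly-6C-positive samples. All Ly-6C-negative arrays lay above all Ly-6C-positive ones, by a mean of 0.22 or 1.17-fold, with an interval from 0.055 to 0.39 (unadjusted p = 0.0145, limma adjusted p = 0.594). Plcg1, the gene of the phospholipase that makes diacylglycerol, measured 9.42, 9.38 and 9.48 against 9.22, 9.27 and 9.28. It too was separated by group, at a mean difference of 0.17 or 1.13-fold and an interval from 0.025 to 0.32 (unadjusted p = 0.0259, limma adjusted p = 0.654).

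Rhoh lay the other way. It encodes a GTPase of blood cells that lacks enzymatic activity and helps ZAP-70 reach the receptor, and it measured 9.71, 10.01 and 9.82 in Ly-6C-negative samples and 10.06, 10.23 and 10.04 in Ly-6C-positive samples. The highest Ly-6C-negative array, replicate 2, lay just below the lowest Ly-6C-positive one, and the mean difference was -0.26 or 1.20-fold with an interval from -0.47 to -0.056 (unadjusted p = 0.0180, limma adjusted p = 0.617).

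Malt1, the gene of the protease of the complex that leads to NF-κB, measured 10.05, 9.82 and 10.14 in Ly-6C-negative samples and 9.90, 9.80 and 9.81 in Ly-6C-positive samples, a difference of 0.17 with an interval from -0.034 to 0.36 (limma adjusted p = 0.813). Ly-6C-negative replicates 1 and 3 lay above every Ly-6C-positive array and replicate 2 among them. Bcl10, which encodes the partner of MALT1, differed by 0.056 with an interval from -0.18 to 0.29, and Vav1, the gene of a Rac exchange factor, by 0.093 with an interval from -0.071 to 0.26. Sos1, the gene of the other Ras exchange factor in the list, differed by -0.0082 with an interval from -0.25 to 0.24. The limma adjusted p of Bcl10, Vav1 and Sos1 were 0.961, 0.888 and 0.998.

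The adhesion receptor genes differed little. Cd2, whose product binds CD48 in mice, averaged 12.06 ± 0.011 (SD, n = 3) in Ly-6C-negative and 12.04 ± 0.10 (SD, n = 3) in Ly-6C-positive samples, which differ by 0.024 (limma adjusted p = 0.979). Cd226, the gene of the costimulatory receptor DNAM-1, averaged 9.28 ± 0.12 (SD, n = 3) and 9.28 ± 0.066 (SD, n = 3), which differ by 0.0056 (limma adjusted p = 0.998).

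**Figure D2:**
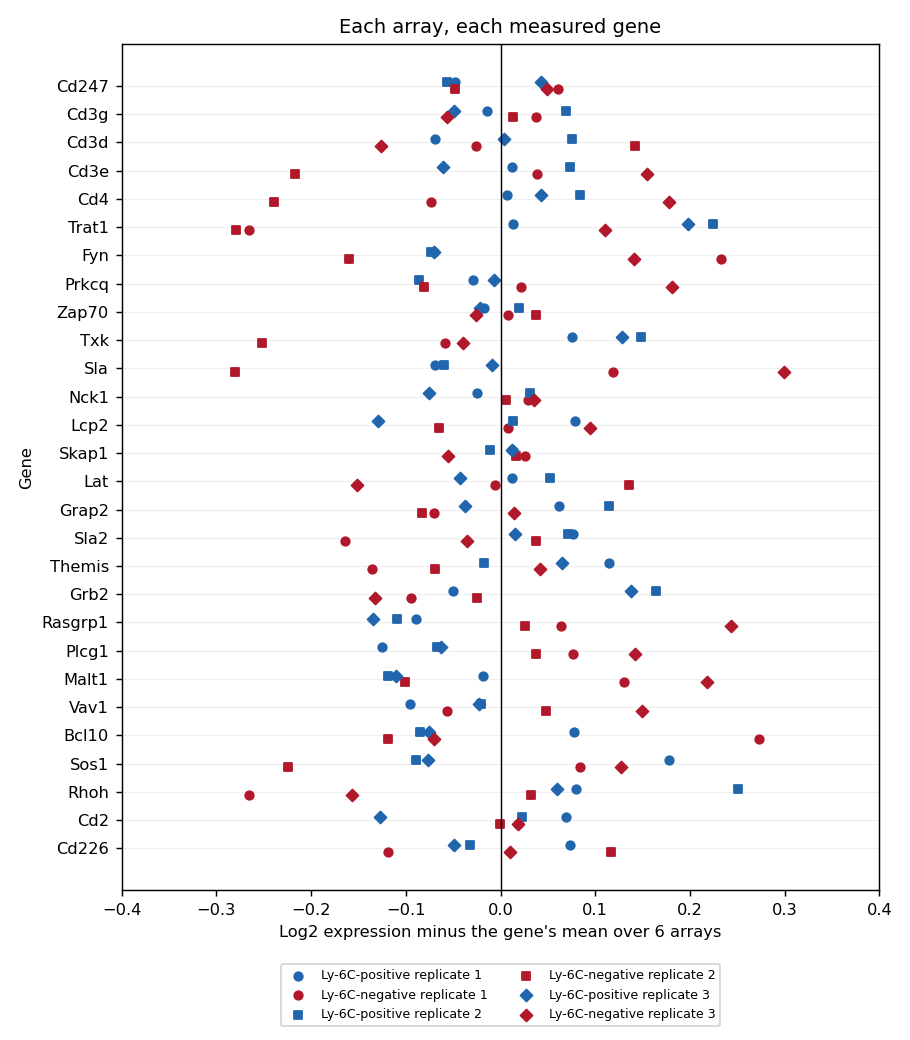
Log2 expression on each array minus the mean of that gene over the 6 arrays (horizontal axis) for the 28 genes; colour gives the group and marker shape the replicate number. The groups separate in Txk, Rasgrp1, Rhoh and Plcg1, or 14.3% of the 28, against 12.6% of all genes. In many rows the Ly-6C-negative arrays are spread more widely than the Ly-6C-positive ones. Ly-6C-negative replicate 2 is the lowest array of its group in 17 of 28 genes, or 60.7%, against 38.1% of all genes.

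The Ly-6C-negative arrays were the more variable for these genes. The median SD of the 28 genes was 0.116 over the Ly-6C-negative and 0.0554 over the Ly-6C-positive arrays, beside 0.0955 and 0.0744 over all genes, and the SD was the larger in Ly-6C-negative samples in 22 of 28 genes, or 78.6%, against 61.6% of all genes. An SD above 0.2 occurred in Ly-6C-negative samples in 5 genes, Sla, Trat1, Bcl10, Cd4 and Fyn, or 17.9% against 11.5% of all genes, and in Ly-6C-positive samples in 0 of 28 against 3.59%. Ly-6C-negative replicate 2 was the lowest array of its group in 17 of 28 genes, or 60.7%, where it was so in 38.1% of all genes. Without that array 0 of the 28 genes passed the limma threshold, and Rhoh came nearest (limma adjusted p = 0.241). Over all 13 refits the lowest adjusted p was that of Trat1 without Ly-6C-negative replicate 3 (difference -0.42, limma adjusted p = 0.207). What sets these arrays apart was not tested, nor was the part of expression level in the contrasts with all genes.

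**Figure D3:**
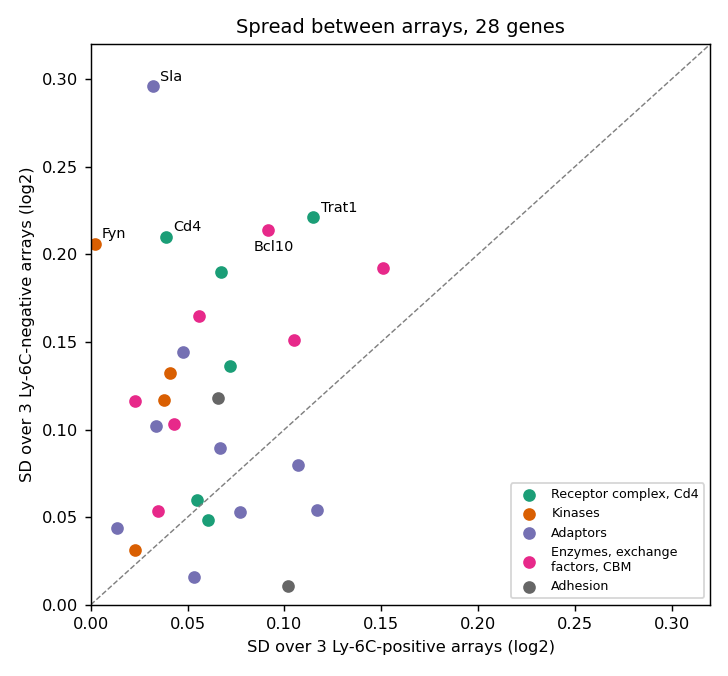
Standard deviation over 3 Ly-6C-positive arrays (horizontal axis) against that over 3 Ly-6C-negative arrays (vertical axis), both in log2, for the 28 genes coloured by role. The dashed line marks equal spread; 22 genes lie above it, and the 5 named genes have an SD above 0.2 in Ly-6C-negative cells.

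Other genes of the pathway, from a list written by function, also gave no call. Of 62 listed, 56 were measured, 0 of them with a limma adjusted p under 0.05, 5 higher and 2 lower at an unadjusted p under 0.05. These are 8.93% and 3.57%, against 3.44% and 3.27% of all genes. The groups did not overlap in 11, or 19.6% against 12.6% of all genes. The median difference was 0.036, with 37 above 0, or 66.1% against 47.8% of all genes. Without Ly-6C-negative replicate 3 that median was -0.0072. Sit1, the gene of a transmembrane adaptor that dampens receptor signalling, measured 8.38, 8.12 and 8.33 in Ly-6C-negative samples and 8.57, 8.75 and 8.70 in Ly-6C-positive samples. It had the smallest p of both lists, a difference of -0.395 or 1.31-fold lower with an interval from -0.59 to -0.20 (unadjusted p = 0.00121, limma adjusted p = 0.278), and the groups did not overlap.

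Pik3cd, which encodes the catalytic PI3-kinase subunit of leukocytes, measured 9.09, 9.12 and 9.10 in Ly-6C-negative samples and 8.87, 8.88 and 8.91 in Ly-6C-positive samples. Its groups stood apart with almost no spread within either, at a difference of 0.22 with an interval from 0.080 to 0.35 (unadjusted p = 0.00557, limma adjusted p = 0.473). The adaptor gene Skap2, a relative of Skap1, differed by 0.20, the exchange factor gene Vav3, a relative of Vav1, by 0.18, and Itgal, which encodes the alpha chain of the integrin LFA-1, by 0.255. Cd28, the gene of the main costimulatory receptor, differed by 0.16 and the actin regulator gene Coro1a by -0.14. For these 5 the adjusted p from limma ranged from 0.641, for Skap2, to 0.742, for Coro1a.

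**Figure D4:**
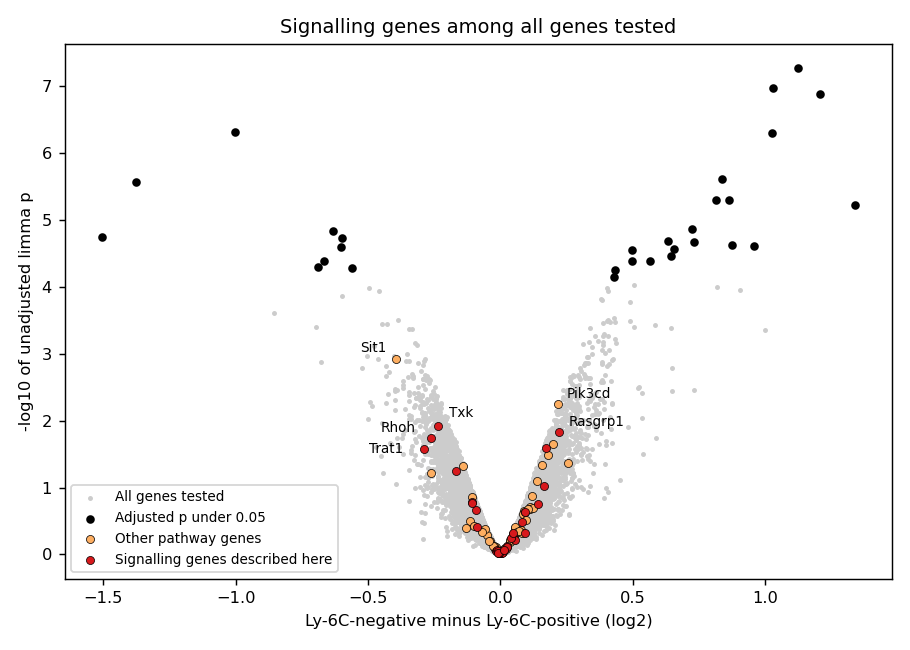
Difference between Ly-6C-negative and Ly-6C-positive cells in log2 (horizontal axis) against the negative log10 of the unadjusted limma p (vertical axis) for 19938 genes; red points are the 28 signalling genes, orange points the 56 other pathway genes and black points the 29 genes with an adjusted p under 0.05. Every red and orange point lies below every black point, and Sit1 is the highest of them.

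Promoter sequence is shown for the 2 genes at either end of the range of differences, Trat1 and Rasgrp1, so that the starts of the most unlike members can be compared. Both are the 250 bases before the annotated start, 5′ to 3′ on the strand of the gene, from RefSeq on GRCm38.p6, at chr16:48772063-48772312 (minus strand) and chr2:117342878-117343127 (minus strand). Capitals mark matches to the letters searched.
Trat1: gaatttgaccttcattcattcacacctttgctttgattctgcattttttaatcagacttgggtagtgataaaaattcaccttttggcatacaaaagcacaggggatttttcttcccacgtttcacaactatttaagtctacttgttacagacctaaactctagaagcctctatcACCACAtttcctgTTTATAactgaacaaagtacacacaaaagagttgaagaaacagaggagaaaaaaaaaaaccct
Rasgrp1: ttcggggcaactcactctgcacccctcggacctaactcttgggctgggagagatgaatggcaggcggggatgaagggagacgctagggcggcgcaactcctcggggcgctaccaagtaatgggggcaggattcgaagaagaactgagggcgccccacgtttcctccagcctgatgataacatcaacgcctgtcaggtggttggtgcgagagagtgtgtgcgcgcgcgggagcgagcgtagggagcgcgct

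Both strands were searched for TGTGGT, the core bound by RUNX factors, for CCGGAAG of ETS factors, for TGANTCA of AP-1 and for TATAAA of the TATA box; these patterns do not overlap in the windows printed. The Trat1 window held the RUNX core, starting 76 bases before the annotated start, and the TATA letters, starting 63 bases before it, both on the opposite strand, and the Rasgrp1 window held no match. Of the 28 genes, 22 had a promoter in the table. The RUNX core was in 3 of the 22, those of Trat1, Sla2 and Sos1, or 13.6%, against 14.2% of all 27025 promoters, 1 per gene. TATAAA was in 2, those of Trat1 and Grb2, or 9.09% against 13.0%, while CCGGAAG and TGANTCA were in 0 of 22, against 7.05% and 6.87%. These are matches of letters, from which nothing follows about binding.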

How the data were processed

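The deposited table holds log2 expression of 28853 probe sets on 6 Affymetrix arrays. Per the labels' protocols, 50 ng of total RNA per sample was amplified and 5 µg of cDNA labelled with biotin; RMA and Partek are named in the submitters' processing notes without versions. The genome build is not given in the sources used here. Values were used as deposited. Probe sets with 1 symbol in the platform annotation (21789) were kept, symbols were updated by Entrez ID, and the probe set of highest mean stood for a gene, which left 19938 genes. The groups were compared by limma 3.58.1 under R 4.3.3, with lmFit and eBayes (2-sided, no covariate, no filter), with Benjamini-Hochberg adjustment over all genes and a threshold of 0.05. The code was tested on simulated data.

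The signalling genes and lists were chosen with earlier results of these data known, so no list was tested as a set. All measured signalling genes are named, with array values for the CD3 chains, Cd4 and the 10 smallest p, and up to 6 other pathway genes per direction at an unadjusted p under 0.05. After centring each group, arrays of replicate 1, 2 and 3 correlated with their namesake across genes at 0.129, 0.128 and 0.107, all above 0.1. Arrays of different numbers in the 2 groups correlated at -0.011 at the highest. The replicate numbers were read as pairs from the data on these weak correlations, and the labels do not state it. Alternatives were a replicate block, a second quantile normalization, array medians subtracted, dim genes left out, the mean of probe sets, trend and robust eBayes, array weights, an adjusted p of 0.1 and each array left out. Figures were drawn with matplotlib 3.10.9.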

Additional observations from a re-analysis of the deposited data

How the results depend on the processing

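None of the 28 signalling genes and none of the 56 other pathway genes passed the limma threshold under any of the 13 refits or at an adjusted p of 0.1 (limma count 0 each time). With the replicate block, which pairs arrays by number, 0 of either list passed and 41 of all genes did, against 29. So it changed no call on the genes described. The p-values and intervals in the Results are from fits without pairs. With the block, the limma adjusted p was 0.568 for Txk, 0.573 for Rasgrp1, 0.402 for Rhoh, 0.679 for Plcg1 and 0.472 for Trat1. Over all genes, array weights gave 54 calls, and leaving out 1 array gave 5 to 47, the extremes being Ly-6C-negative replicates 1 and 2; Ly-6C-positive replicates 1, 2 and 3 gave 8, 6 and 8. The median of the signalling genes, 0.00080, was 0.010 after the second quantile normalization, 0.022 with array medians subtracted and 0.0097 with array weights, and ranged from -0.023 to 0.024 with 1 array left out, without Ly-6C-positive replicates 3 and 2. That of the other pathway genes ranged from -0.0072 to 0.053 with 1 array left out, the lowest without Ly-6C-negative replicate 3. In 4 of the 13 refits the differences of the 28 genes equal those reported by construction. In the other 9, 15 of the 28 kept 1 sign. The other 13 differed by under 0.1 in the main fit, though by more in some refits. With 1 array left out the 15 ranged from -0.27 to -0.17 for Txk, 0.16 to 0.265 for Rasgrp1, -0.34 to -0.19 for Rhoh, 0.14 to 0.195 for Plcg1, -0.42 to -0.22 for Trat1, -0.235 to -0.13 for Grb2, 0.097 to 0.26 for Malt1, -0.15 to -0.054 for Sla2, -0.16 to -0.068 for Themis, 0.062 to 0.26 for Fyn, -0.135 to -0.058 for Grap2, 0.042 to 0.145 for Vav1, 0.011 to 0.14 for Prkcq, 0.021 to 0.074 for Nck1 and 0.021 to 0.075 for Cd247. With the second quantile normalization the sign turned for Zap70 (-0.0033), Cd3e (0.0032), Cd3d (0.018), Cd226 (-0.013) and Cd3g (0.025). With array medians subtracted it turned for Lat (0.0069), Cd3e (0.0056), Skap1 (0.013), Cd3d (0.015), Sos1 (0.013) and Cd3g (0.017), and with array weights for Cd3e (0.012), Sos1 (0.040) and Cd226 (-0.042). For the other 13 they were -0.20 to 0.0079 for Cd4, -0.035 to 0.26 for Sla, -0.067 to 0.13 for Bcl10, -0.034 to 0.064 for Cd2, -0.034 to 0.070 for Lcp2, -0.0027 to 0.029 for Zap70 and -0.086 to 0.058 for Lat. They were -0.097 to 0.089 for Cd3e, -0.024 to 0.017 for Skap1, -0.079 to 0.055 for Cd3d, -0.074 to 0.10 for Sos1, -0.052 to 0.066 for Cd226 and -0.030 to 0.029 for Cd3g. None of these genes had another probe set to compare. With 3 arrays a group, small differences were not detectable at the adjusted threshold. Differences whose intervals lay clear of 0 failed it too, as for Trat1 (-0.29, limma adjusted p = 0.655) and Sit1 (-0.395, limma adjusted p = 0.278).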

Other observations

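In 13 of the 28 signalling genes, or 46.4%, Ly-6C-negative replicate 2 was the lowest and replicate 3 the highest of the Ly-6C-negative arrays, as in 21 of 56 other pathway genes, or 37.5%, and in 20.1% of all genes. The 13 span every role but adhesion: Cd4, Cd3e and Trat1 of the receptor complex, the kinase genes Txk and Prkcq, the adaptor genes Grap2, Nck1, Lcp2 and Sla, and Rasgrp1, Plcg1, Malt1 and Sos1. They include genes with differences above 0 and below 0. The arrays were picked out after their values were seen, and the genes share them, so the counts describe these arrays.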
